A study of Mus musculus with 11 samples.

Results

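Secretory club cells and their neighbours in the airway lining release proteins that condition and defend the mucus layer, and 8 genes of this kind are described here across the airway libraries of a mouse model of asthma exacerbation. They are the secretoglobin genes Scgb1a1, Scgb3a1, Scgb3a2 and Scgb1c1, the BPI fold genes Bpifa1 and Bpifb1, the C-type lectin gene Reg3g and the immunoglobulin receptor gene Pigr. The members are a list of gene names grouped by their known products, and the list was drawn up with earlier results of these data known. They make up 8 of the 21899 genes listed, and all 8 entered the fit, which took in the 14004 genes whose mean reached 0.5 FPKM. FPKM are fragments scaled to the exon length of the gene and to the depth of the library, so that levels can be compared between genes per length.

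The libraries came from wild-type male BALB/c mice. The PBS group (n = 3, PBS 1 to 3) was not sensitised and received saline alone. Mice of the OVA/LPS/Vehicle group (n = 4, written OL 12, 34, 56 and 78 after their labels) were sensitised with ovalbumin and alum, challenged with ovalbumin through the nose, given LPS through the nose, and given vehicle into the trachea after the LPS had begun. The OVA/LPS/GGsTop group (n = 4, OLG 1 to 4) had the same course with GGsTop, an inhibitor of γ-glutamyl transpeptidase, in place of vehicle. No group received ovalbumin and LPS without an intratracheal dose, and none received GGsTop alone. The labels give the tissue as trachea, whereas the study describes larger airways freed from the lung by blunt dissection with the trachea left off. The OL labels name number pairs, and whether each stands for pooled mice is not stated in the sources used here. Nothing in the labels ties a library to a separate animal, so p-values measure only the spread between these libraries, which may be technical.

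Secretoglobins are small dimeric proteins of airway lining fluid, and Scgb1a1 encodes the club cell secretory protein by which club cells are usually recognised. Bpifa1, also called SPLUNC1, and Bpifb1, also called LPLUNC1, encode relatives of the bactericidal permeability-increasing protein that bind lipids and are made by secretory cells of the nose, trachea and large airways. Reg3g encodes a lectin that kills Gram-positive bacteria and is known as a target of IL-22 and STAT3 signalling in gut and lung. Pigr encodes the receptor that carries dimeric IgA through the epithelium into the lumen.

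The sequences just ahead of the transcription start are shown for the BPI fold pair, for Reg3g and for Scgb3a1, because these 4 genes had the largest log2 changes of the members between OL and PBS, although that of Bpifa1 did not pass its test. Promoters from RefSeq on GRCm38.p6 were at hand for 6 of the 8 members, with 2 starts for Bpifb1, and none was held for Scgb1a1 and Scgb3a2. Each line gives the 150 bases before the start on the gene's own strand, 5′ to 3′, and capitals mark matches to the motifs searched.
Bpifa1, chr2:154142730-154142879, plus strand: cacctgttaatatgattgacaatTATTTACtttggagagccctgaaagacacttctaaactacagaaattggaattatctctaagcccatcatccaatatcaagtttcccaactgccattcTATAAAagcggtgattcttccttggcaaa
Bpifb1 start 1, chr2:154190668-154190817, plus strand: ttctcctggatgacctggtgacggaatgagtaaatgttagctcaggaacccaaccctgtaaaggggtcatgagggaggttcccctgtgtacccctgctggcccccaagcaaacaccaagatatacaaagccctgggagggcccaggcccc
Bpifb1 start 2, chr2:154200230-154200379, plus strand: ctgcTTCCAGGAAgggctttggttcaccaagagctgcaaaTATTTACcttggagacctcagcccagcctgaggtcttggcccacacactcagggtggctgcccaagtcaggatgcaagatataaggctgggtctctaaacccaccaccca
Reg3g, chr6:78468875-78469024, minus strand: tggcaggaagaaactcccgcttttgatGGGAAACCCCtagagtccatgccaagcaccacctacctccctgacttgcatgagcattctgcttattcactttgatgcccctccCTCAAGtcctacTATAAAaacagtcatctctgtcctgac
Scgb3a1, chr11:49663445-49663594, plus strand: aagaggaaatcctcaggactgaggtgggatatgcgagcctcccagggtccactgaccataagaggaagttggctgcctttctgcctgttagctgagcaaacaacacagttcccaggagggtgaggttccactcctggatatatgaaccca

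The 6 motifs were searched on both strands, and N stands for any base. A TATA box, TATAAA, lay 29 to 24 bases before the start of Bpifa1 and 27 to 22 bases before that of Reg3g, and 7.57% of the 32851 promoters in the table held 1 in the same window. The forkhead core TNTTTAC lay 127 to 121 bases before the start of Bpifa1 and 110 to 104 bases before start 2 of Bpifb1, against 5.97% of all promoters. The same Bpifb1 window held the STAT motif TTCNNNGAA 146 to 138 bases before the start, against 4.09% of all. The Reg3g window held the NF-κB motif, GGGAAACCCC as read on this strand, 123 to 114 bases before the start, against 2.63% of all. It also held the NKX2-1 core CTCAAG 39 to 34 bases before the start, a core that 7.69% of all promoters held and that the Scgb1c1 window held too, 147 to 142 bases before its start. The AP-1 motif TGANTCA, held by 4.24% of all promoters, was in none of these windows. No motif was matched at start 1 of Bpifb1, in Scgb3a1 or in Pigr. A match is a run of letters and no evidence of binding.

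Some libraries stood apart before any comparison was made. The FPKM imply between 14513136 fragments in OLG 2 and 18632382 in PBS 3. PBS 3 also favoured GC-rich genes, with a slope of 0.533 log2 units per 10 points of GC content, against 0.0611 and 0.0484 in PBS 1 and 2, 0.0464 to 0.108 in OLG and -0.261 to -0.190 in OL. The thyroid gene Tg measured 90.6 FPKM in OL 12, 166 in OL 34 and 303 in OL 56, but 0.256 in OL 78 and at most 1.44 in every PBS and OLG library. All but OL 78 among the OL libraries thus carried thyroid transcripts. The cartilage genes Acan and Matn1, which encode aggrecan and matrilin-1 and which, like Krt5, were singled out from their list after their values were seen, were listed at 0 in PBS 3, OLG 1 and OLG 3. Acan measured 20.4 FPKM in PBS 2 and 23.0 in OLG 4, 8.84 in PBS 1, 5.55 in OLG 2, and 2.13 to 7.06 in the OL libraries. Cartilage marks the trachea and main bronchi in mice. The dissected pieces thus differed in the transcripts of these genes from 1 library to the next within PBS and within OLG.

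The members spanned a wide range of levels. Scgb1a1 had the 2nd highest mean FPKM of all genes listed and took most of the fragments of the 8 members, which together made up 1.64% of all fragments in PBS 1, the lowest library, and 3.44% in OL 34, the highest. Bpifa1 stood at place 12 by mean FPKM, Scgb3a1 at 15, Scgb3a2 at 17, Reg3g at 119, Bpifb1 at 168 and Pigr at 229. Scgb1c1 stood at place 10566 and rested on 9 to 63 fragments a library, so that its values carry a large counting error. Without Scgb1a1 the share of the remaining 7 members was 0.107%, 0.812% and 0.0424% in PBS 1, 2 and 3. It was 0.764%, 1.16%, 1.12% and 0.827% in OL 12, 34, 56 and 78, and 0.338%, 0.551%, 0.104% and 1.52% in OLG 1, 2, 3 and 4. PBS 2 and OLG 4 were the high libraries of their groups, PBS 3 and OLG 3 the low ones, and the OL libraries lay close to each other.

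**Figure D1:**
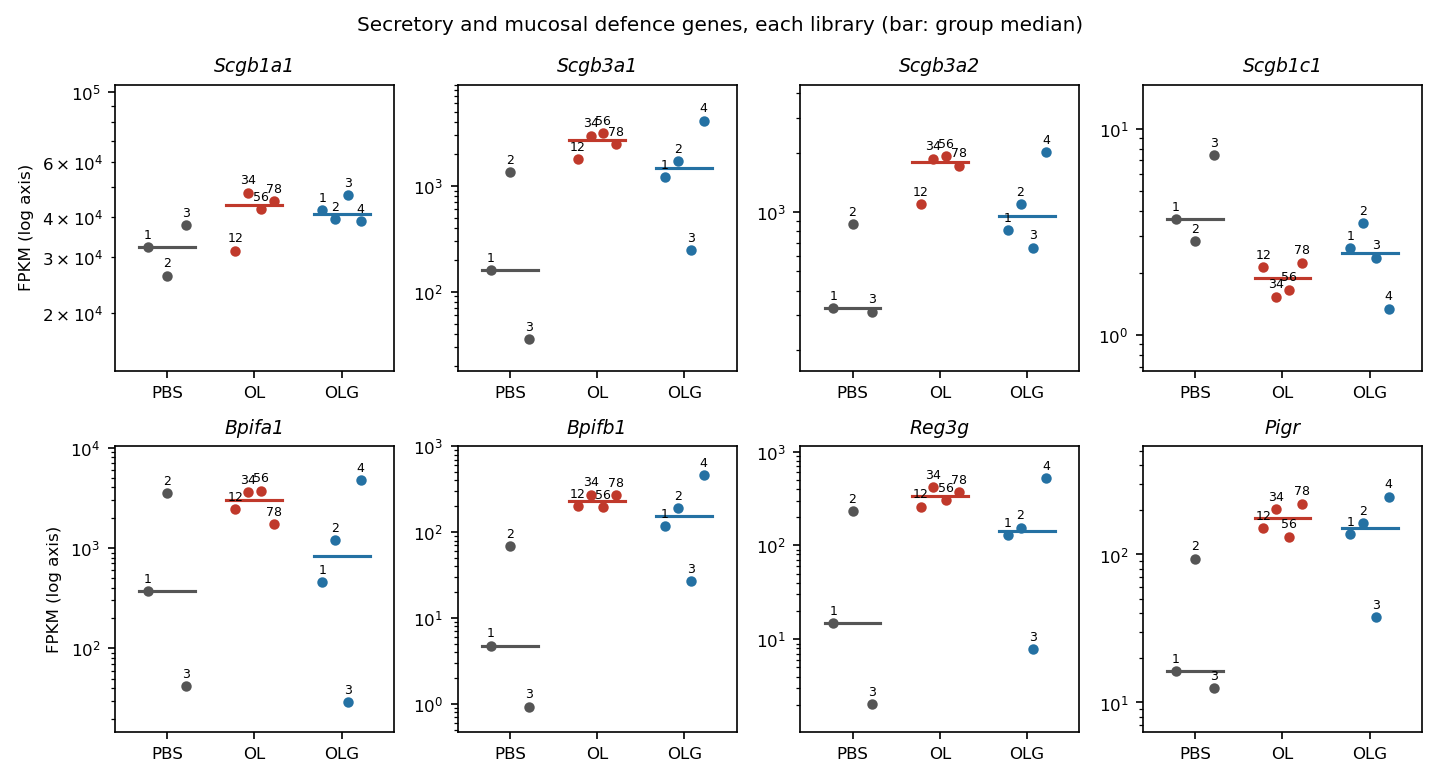
FPKM of the 8 genes in each library on log axes, with points numbered by library and bars at the group medians. Scgb1a1 varied little in every group, whereas Bpifa1, Bpifb1, Reg3g and Scgb3a1 were spread widely in PBS and OLG and tightly in OL.

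The first comparison, OL against PBS, asks what the exacerbation course with vehicle changed. In limma, 6 of the 8 members passed an adjusted p of 0.05, where 38.0% of all genes tested did. Of these, 5 rose, against 15.9% of all genes, and 1 fell, against 22.1%. By voom on recovered fragments with TMM factors, the split over all genes was 2941 higher and 2513 lower, where limma on FPKM had 2231 and 3096. An unadjusted p under 0.05 was reached by 6 members, against 49.6% of all genes. The groups did not overlap for the same 6 members that passed, against 44.1% of all genes, 18.7% with OL higher and 25.4% with OL lower. The median difference of log2(FPKM + 1) was 2.73 over the members and -0.01 over all genes. The log2 changes given here are on this scale, except those of ratios between members and those by voom.

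Among the secretoglobins, Scgb1a1 was nearly level. It measured 32159, 26145 and 37867 FPKM in PBS 1, 2 and 3 and 31369.8, 47905, 42534 and 45097 in OL 12, 34, 56 and 78. OL 12 lay inside the PBS range, so the groups overlapped, and the log2 change of 0.38 (SE 0.38, adjusted p = 0.435) had a 95% interval from -0.45 to 1.20. Scgb3a1, a secretoglobin made mainly in the larger airways, measured 160.3, 1349 and 35.7 FPKM in PBS 1, 2 and 3. In OL 12, 34, 56 and 78 it measured 1773, 2961, 3113 and 2458. Every OL library was above every PBS library, but PBS 2 came near to OL 12. The log2 change was 3.65 (SE 1.09, adjusted p = 0.0231). Scgb3a2, a secretoglobin of club cells from the trachea to the bronchioles, measured 326, 867 and 313 FPKM in PBS and 1093, 1863, 1914 and 1716 in OL. It rose by a log2 of 1.85 (SE 0.43, adjusted p = 0.00916), with PBS 2 again the nearest PBS library. Scgb1c1, best known from the nasal mucosa, went the other way. Its 3.65, 2.84 and 7.43 FPKM in PBS and 2.13, 1.53, 1.65 and 2.24 in OL did not overlap. It fell by 0.89 on the log2 scale (SE 0.27, adjusted p = 0.0236) at a level of few fragments. In bulk tissue, fewer cells of a type and less RNA per cell cannot be told apart, and this holds for every member.

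Of the BPI fold genes, 1 of 2 passed. Bpifb1 measured 4.77, 69.1 and 0.935 FPKM in PBS 1, 2 and 3 and 199.5, 272, 194 and 268 in OL 12, 34, 56 and 78. No PBS library reached the OL range, and the log2 change of 4.65 (SE 1.08, adjusted p = 0.00937) had a 95% interval from 2.27 to 7.03. Bpifa1, which lies near Bpifb1 on chromosome 2, measured 373, 3518 and 42.0 FPKM in PBS and 2419, 3591, 3717 and 1714 in OL. PBS 2 was above OL 12 and OL 78, so the groups overlapped. With PBS libraries that differed by up to 83.8-fold, its log2 change of 2.83 (SE 1.60) did not pass the test (adjusted p = 0.175).

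Reg3g measured 14.9, 232 and 2.03 FPKM in PBS 1, 2 and 3 and 259, 416, 302 and 369 in OL 12, 34, 56 and 78. The groups did not overlap, although PBS 2 came within a short step of OL 12. The log2 change of 3.89 (SE 1.41, adjusted p = 0.0485) lay at the edge of the threshold. Pigr measured 16.3, 93.9 and 12.5 FPKM in PBS and 151, 201, 132 and 221 in OL. All OL libraries were above all PBS libraries, and the log2 change was 2.62 (SE 0.69, adjusted p = 0.0143). Jchain, which encodes the chain that joins IgA into the dimers Pigr carries, measured 10.5, 33.2 and 7.16 FPKM in PBS and 331, 206, 137 and 665 in OL, and rose by a log2 of 4.26 (SE 0.58, adjusted p = 0.00337).

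After a correction for the GC content of each gene, Scgb3a1, Scgb3a2, Bpifb1 and Pigr still passed, while Reg3g (log2 change 3.47, adjusted p = 0.0879) and Scgb1c1 (-0.75, adjusted p = 0.0613) did not. Of all genes tested with this correction, 20.8% passed. With OL 34 and OL 56, the libraries richest in thyroid transcripts, left out together, no member passed, where 131 of the 14004 genes did. The log2 changes were then 4.66 for Bpifb1 (SE 1.43, adjusted p = 0.0729), 2.70 for Pigr (SE 0.90), 3.79 for Reg3g (SE 1.86), 3.38 for Scgb3a1 (SE 1.43), 1.62 for Scgb3a2 (SE 0.55) and -0.74 for Scgb1c1 (SE 0.34), near those with all libraries but with larger errors. Over all 17 alternatives the adjusted p ranged from 0.000108 to 0.0729 for Bpifb1, from 0.00188 to 0.235 for Reg3g and from 0.00275 to 0.155 for Scgb1c1. Without PBS 3, Scgb3a1 (2.43, adjusted p = 0.117), Pigr (2.10, adjusted p = 0.0732), Reg3g (2.45, adjusted p = 0.235) and Scgb1c1 (-0.56, adjusted p = 0.103) lost the call. Scgb3a1 also lost it without PBS 1, OL 34 or OL 56, and Reg3g and Scgb1c1 passed in only 8 and 10 of the 17 alternatives. Bpifa1 gained it without PBS 2 (4.43, adjusted p = 0.0379) and with array weights (2.57, adjusted p = 0.0465), a fit in which PBS 1 (weight 3.89) far outweighed PBS 2 (0.431) and PBS 3 (0.153), and without PBS 3 it was at 1.25 (adjusted p = 0.607). Of all genes, 46% passed without PBS 2 and 56.5% with array weights. The size also turned on these libraries: without PBS 3 and without PBS 2 the log2 change was 3.53 and 6.11 for Bpifb1, 2.43 and 5.03 for Scgb3a1, 2.45 and 5.58 for Reg3g, 2.10 and 3.50 for Pigr, 1.59 and 2.33 for Scgb3a2, and -0.56 and -1.12 for Scgb1c1. Over the alternatives the adjusted p ranged from 0.000489 to 0.131 for Scgb3a1, from 0.000214 to 0.0834 for Pigr and from 0.0379 to 0.607 for Bpifa1.

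**Figure D2:**
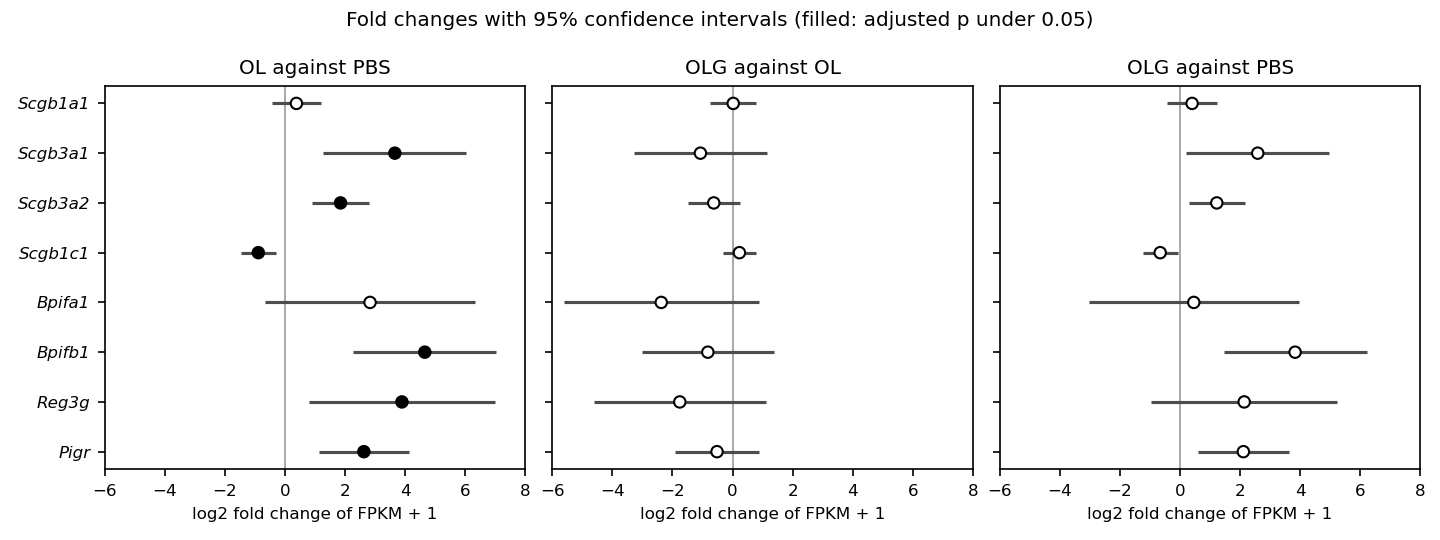
Log2 changes of FPKM + 1 with 95% confidence intervals for the 8 genes in the 3 comparisons, with filled points for an adjusted p under 0.05. Filled points stand only in OL against PBS (6 of 8), and the intervals of Bpifa1 and Reg3g are the widest.

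The second comparison, OLG against OL, asks what GGsTop changed on top of the exacerbation course. No member passed the adjusted threshold in limma, against 8.71% of all genes tested, 6.90% higher and 1.81% lower. That split, 966 higher and 254 lower, was 344 and 354 with the libraries rescaled to the same median and 381 and 430 by voom on recovered fragments with TMM factors. No member had an unadjusted p under 0.05, against 30.8% of all genes, and voom called none either. No member had groups that did not overlap, against 29.7% of all genes, 17.3% with OLG higher and 12.4% with OLG lower. The median log2 change was -0.72 over the members and 0.03 over all genes. The OL libraries enter both this comparison and the last, so the values are set side by side and the fold changes are not independent.

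Scgb1a1 measured 42233, 39538, 47126 and 38967 FPKM in OLG 1, 2, 3 and 4, all inside the OL range. Its log2 change of 0.02 (SE 0.35, adjusted p = 0.974) had a 95% interval from -0.74 to 0.79, the narrowest but for Scgb1c1. Scgb3a2 measured 808, 1098, 661 and 2012 FPKM in OLG, where OLG 4 was above all OL libraries and OLG 1 and OLG 3 were below all of them. Its log2 change was -0.63 (SE 0.40, adjusted p = 0.298, 95% interval -1.49 to 0.24). Scgb1c1 measured 2.63, 3.48, 2.37 and 1.34 FPKM in OLG, with a log2 change of 0.23 (SE 0.25, adjusted p = 0.552).

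The remaining members had OLG values that ranged from below the lowest to above the highest OL library. Scgb3a1 measured 1205, 1711, 245 and 4097 FPKM in OLG 1, 2, 3 and 4 (log2 change -1.07, SE 1.01, adjusted p = 0.490). Bpifa1 measured 455, 1191, 29.1 and 4708 FPKM, a spread of 162-fold within 1 group (log2 change -2.37, SE 1.48, adjusted p = 0.290). Its 95% interval, -5.61 to 0.87, holds both no difference and a large fall. Bpifb1 measured 118, 191, 27.1 and 458 FPKM (log2 change -0.82, SE 1.004, adjusted p = 0.604). Reg3g measured 129, 155, 7.86 and 521 FPKM (log2 change -1.76, SE 1.31, adjusted p = 0.376), and Pigr 137, 164, 37.6 and 246 FPKM (log2 change -0.52, SE 0.63, adjusted p = 0.607). In all 5 genes OLG 3 was the lowest and OLG 4 the highest of the OLG libraries, and OLG 4 exceeded every OL library. The 95% interval was -3.02 to 1.38 for Bpifb1 and -1.91 to 0.88 for Pigr, so these libraries allow a difference in either direction inside these bounds, and the groups are not shown to be alike. Without OLG 3 the log2 change of Bpifb1 was -0.08 (adjusted p = 0.965) and that of Pigr turned to 0.03 (adjusted p = 0.976), against ranges of the adjusted p over the 18 alternatives from 0.174 to 0.965 and from 0.237 to 0.976. Between leaving out OLG 4 and leaving out OLG 3, the log2 change ran from -3.43 to -0.996 for Bpifa1, from -2.56 to -0.60 for Reg3g and from -1.66 to -0.31 for Scgb3a1. Scgb3a2 passed under array weights alone (-0.91, adjusted p = 0.0228), and its adjusted p over all alternatives ranged from 0.0228 to 0.716. Under array weights 37.2% of all genes passed in this comparison.

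In the comparison of OLG with PBS, which asks what remained different from unsensitised mice under GGsTop, no member passed the adjusted threshold in limma, against 2.88% of all genes tested, 2.06% higher and 0.821% lower. An unadjusted p under 0.05 was reached by 5 of the 8 members, against 20.5% of all genes, and voom called none. With the replicate number as a block, on PBS 1 to 3 and OLG 1 to 3, 62 of all genes and no member passed. The groups did not overlap for Scgb1a1 alone, against 14.8% of all genes, 7.22% with OLG higher and 7.54% with OLG lower. The median log2 change was 1.66 over the members and 0.01 over all genes. Bpifb1 came closest, with a log2 change of 3.83 (SE 1.08, adjusted p = 0.0788, 95% interval 1.45 to 6.21). Its OLG 1, 2 and 4 libraries were above every PBS library, and OLG 3, at 27.1 FPKM, was above PBS 1 and PBS 3 but below PBS 2. Pigr had a log2 change of 2.11 (SE 0.69, adjusted p = 0.120), Scgb3a2 of 1.22 (SE 0.43, adjusted p = 0.146), Scgb3a1 of 2.59 (SE 1.09, adjusted p = 0.210) and Scgb1c1 of -0.66 (SE 0.27, adjusted p = 0.194). Reg3g (2.13, SE 1.41, adjusted p = 0.406) and Bpifa1 (0.46, SE 1.60, adjusted p = 0.889) were spread most. Scgb1a1, whose groups did not overlap, differed by a log2 of only 0.40 (SE 0.38, adjusted p = 0.566).

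These values changed with the libraries left out and with their weights. Without PBS 2, Bpifb1 (5.29, adjusted p = 0.00655), Pigr (2.98, adjusted p = 0.0116), Scgb3a1 (3.96, adjusted p = 0.0218) and Scgb3a2 (1.70, adjusted p = 0.0229) passed. Of all 14004 genes, 1597 passed in that fit, against 403 with all libraries. With array weights, which weighted PBS 1 at 3.89 but PBS 2 at 0.431 and PBS 3 at 0.153, so that the PBS values came mostly from PBS 1, the same 4 genes passed, at 3.96 for Bpifb1 (adjusted p = 0.00376), 2.497 for Pigr (adjusted p = 0.00707), 2.46 for Scgb3a1 (adjusted p = 0.0287) and 1.34 for Scgb3a2 (adjusted p = 0.0108). Under these weights 2557 of the 14004 genes passed. Without OLG 3, Bpifb1 (4.57, adjusted p = 0.0286) and Pigr (2.66, adjusted p = 0.0287) passed. Without PBS 3, Bpifb1 was at 2.70 (adjusted p = 0.279), and Bpifa1 turned to -1.12 (adjusted p = 0.800). Over the 19 alternatives the adjusted p ranged from 0.00376 to 0.420 for Bpifb1, from 0.00707 to 0.502 for Pigr, from 0.0218 to 0.609 for Scgb3a1, from 0.0108 to 0.501 for Scgb3a2 and from 0.382 to 0.989 for Bpifa1.

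**Figure D3:**
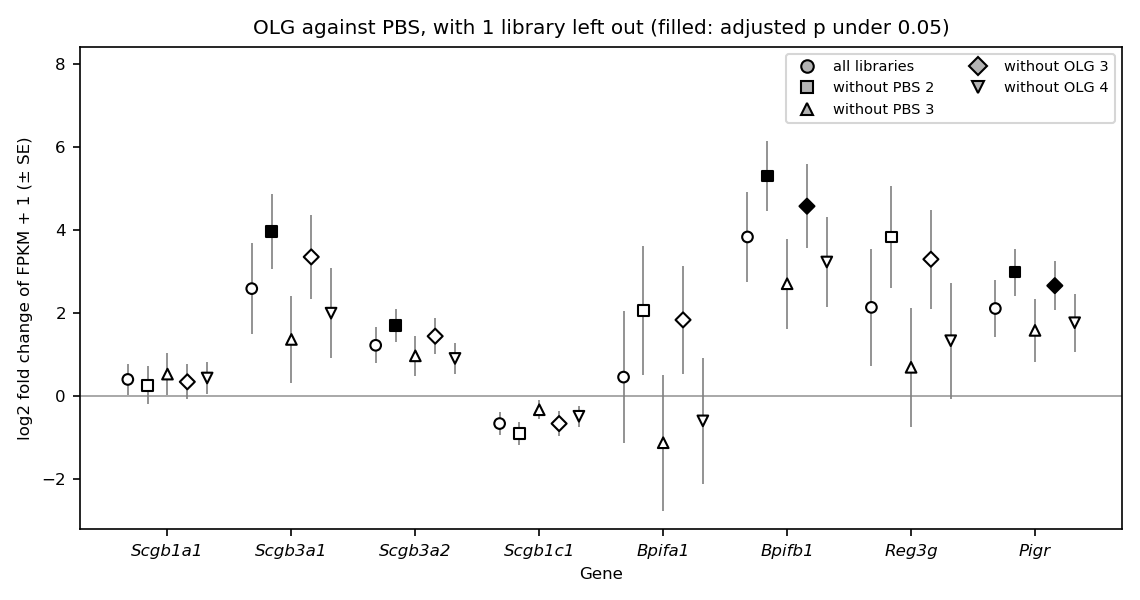
Log2 changes of FPKM + 1 (± SE) of the 8 genes in OLG against PBS, with all libraries and without PBS 2, PBS 3, OLG 3 or OLG 4 (point shapes), filled for an adjusted p under 0.05. Bpifb1 ran from 2.70 without PBS 3 to 5.29 without PBS 2, and Scgb1a1 moved little.

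The spread inside PBS and OLG had the same order of libraries in most members. In 6 of the 8, all but Scgb1a1 and Scgb1c1, PBS 2 was the highest and PBS 3 the lowest PBS library while OLG 4 was the highest and OLG 3 the lowest OLG library. This double order, described after it was seen, held in 8.32% of all genes tested. It held in 10 of 30 club cell genes, 5 of 13 basal cell genes, 5 of 15 goblet cell genes and 7 of 25 ciliated cell genes. The double order also held in 2 of 25 pan-epithelial genes and 8 of 16 genes of the smooth muscle and cartilage list. Of the gland genes 5 of 11 had it, and of the alveolar genes 0 of 20. Taken alone, the OLG order held in 18.8% of all genes tested and in 6 of the 8 members. Most goblet (14 of 15), ciliated (23 of 25), basal (10 of 13) and pan-epithelial genes (16 of 25) had this OLG order. The PBS order alone held in 25.2% of all genes and in 6 of the 8 members. Fewer goblet (5 of 15), ciliated (7 of 25), basal (5 of 13) and pan-epithelial genes (2 of 25) had that PBS order.

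Markers of other cell types moved with these libraries. The summed FPKM of the 14 basal cell genes, of which Perp had the highest mean over all libraries, were 24.8, 92.3 and 30.2 in PBS 1, 2 and 3. They were 111, 105, 109 and 92.9 in OL and 43.5, 76.9, 25.8 and 193 in OLG. The sums were highest in PBS 2 and OLG 4 of their groups and lowest in PBS 1 and OLG 3. The basal keratin Krt5 was highest in PBS 2 and OLG 4 and lowest in PBS 3 and OLG 3, with 0.816, 12.9 and 0.0977 FPKM in PBS, 16.03, 13.5, 11.3 and 11.03 in OL, and 2.30, 7.12, 0.0288 and 33.1 in OLG. Basal cells are abundant in the trachea and main bronchi of mice and scarce further out. The 20 alveolar genes, of which Sftpc was the most abundant, ran the other way in OLG, with sums of 8702, 10624, 13311 and 5416 FPKM in OLG 1, 2, 3 and 4. In PBS they summed to 13040, 11528 and 17998 FPKM, lowest in PBS 2 and highest in PBS 3, and in OL to 6210.2, 9307, 7323 and 9988. The summed pan-epithelial genes, of which Krt8 had the highest mean over all libraries, moved less, with 786, 796 and 1112 FPKM in PBS and 851, 946, 811 and 1226 in OLG. Their highest PBS sum was thus in PBS 3. The part of the makeup of the dissected pieces in the members' values was not tested.

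Goblet cell genes were mixed in OLG 3, the lowest OLG library in 6 of the 8 members. Clca1 measured 67.0 FPKM there, against 0, 0.376 and 0.554 FPKM in PBS 1, 2 and 3. The other OLG libraries measured 589, 714 and 1557 FPKM, and the OL libraries 808, 894, 374 and 1338. Clca1, which encodes a secreted regulator of mucus, rose by a log2 of 9.23 in OL against PBS (SE 0.83, adjusted p = 0.000500). In Clca1 and Spdef, which encodes a goblet cell transcription factor, OLG 3 was above every PBS library. In Agr2 (2.06 against 13.1 FPKM), Muc5b (9.46 against 13.0) and Tff2 (10.1 against 11.5) it was below PBS 2, and in Gp2 (0.254 against 1.83) it was below PBS 1. The goblet list without Clca1 summed to 65.7 FPKM in OLG 3, and to 38.5, 86.7 and 47.0 in PBS 1, 2 and 3.

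**Figure D4:**
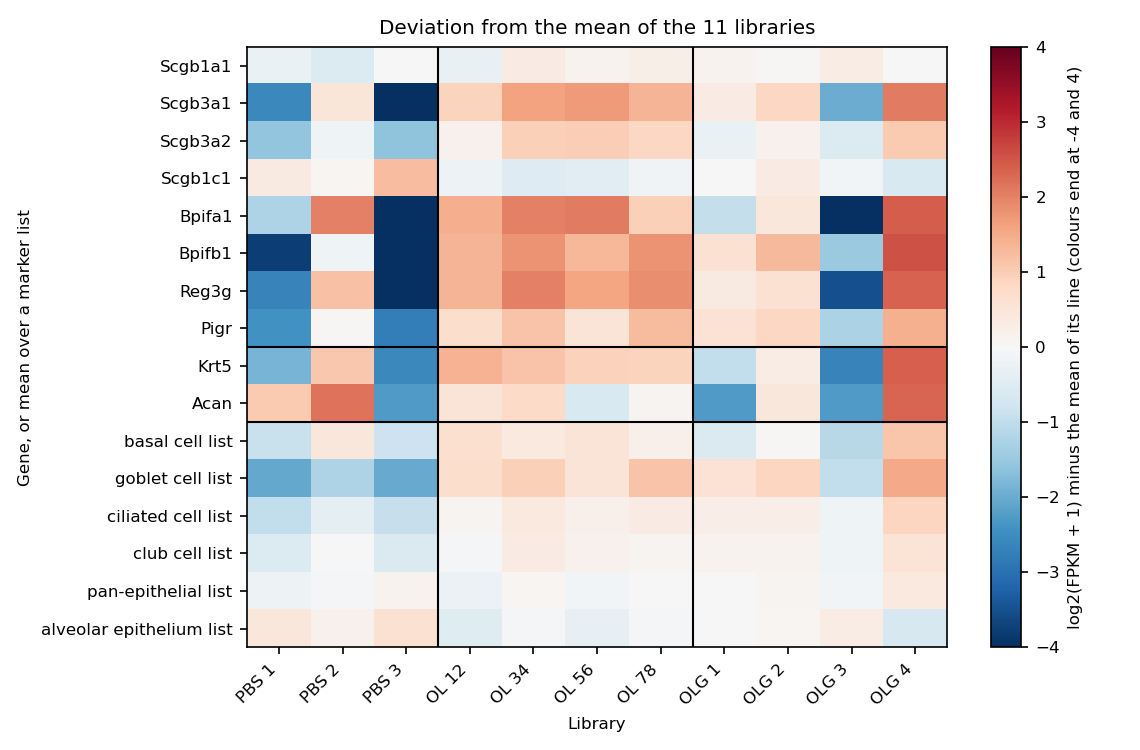
Deviation of log2(FPKM + 1) from its mean over the 11 libraries for the 8 genes, for Krt5 and Acan, and for the means of 6 marker lists, with red above and blue below that mean. Scgb3a1, Bpifa1, Bpifb1, Reg3g and Pigr share low values in PBS 1, PBS 3 and OLG 3 with Krt5, and the alveolar list has its lowest mean in OLG 4.

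Ratios between members within a library do not depend on how much of the library the members take up together. For the 28 pairs of members, the ratios of FPKM did not overlap between OL and PBS in 15, between OLG and OL in 1, and between OLG and PBS in 6, and with the GC correction in 14, 0 and 6. The ratios used FPKM without an added 1, whereas those with the GC correction used log2(FPKM + 1). The pairs share members, and no share over pairs of other genes was computed, so these counts are a description. Single genes did not overlap in 44.1%, 29.7% and 14.8% of cases. Of the 84 exact two-sided permutation tests, the smallest p that 4 libraries against 3 allow is 0.0571, and after adjustment over the 84 tests no ratio was below 0.2.

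The pairs given in full were chosen after the ratios were seen. The ratio of Bpifa1 to Bpifb1 was 78.1, 50.9 and 44.9 in PBS 1, 2 and 3, 12.1, 13.2, 19.1 and 6.40 in OL 12, 34, 56 and 78, and 3.87, 6.22, 1.07 and 10.3 in OLG 1, 2, 3 and 4. The high PBS 2 and the low PBS 3 thus had like ratios, although their Bpifa1 levels were far apart, and every OL and OLG library was below every PBS library. On the log2 scale the difference was -2.25 in OL against PBS (exact permutation p = 0.0571, adjusted p = 0.2). It was -3.80 in OLG against PBS (exact permutation p = 0.0571, adjusted p = 0.2). With the GC correction, on log2(FPKM + 1), these differences were -1.86 and -3.39. On that scale without the correction, Bpifa1 and Bpifb1 changed by 2.83 and 4.65 in OL against PBS. In OLG against PBS they changed by 0.46 and 3.83, so the smaller size came with the added 1 and not with the correction. In OLG against OL the difference was -1.55 (exact permutation p = 0.0571, adjusted p = 0.2), and the groups overlapped.

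The ratio of Bpifa1 to Reg3g was 25.0, 15.2 and 20.7 in PBS, 9.33, 8.62, 12.3 and 4.64 in OL, and 3.53, 7.69, 3.70 and 9.04 in OLG. PBS libraries were again the highest, but with the GC correction, on log2(FPKM + 1), OL and PBS overlapped. The ratio of Bpifb1 to Reg3g was 0.320, 0.298 and 0.460 in PBS, 0.769, 0.654, 0.644 and 0.725 in OL, and 0.911, 1.24, 3.45 and 0.879 in OLG. The 3 groups did not overlap at all, in the order PBS, OL, OLG. Its log2 difference between OLG and OL was 0.97 (exact permutation p = 0.0286, adjusted p = 0.2). With the GC correction, on log2(FPKM + 1), this difference was 0.57 and the groups overlapped.

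**Figure D5:**
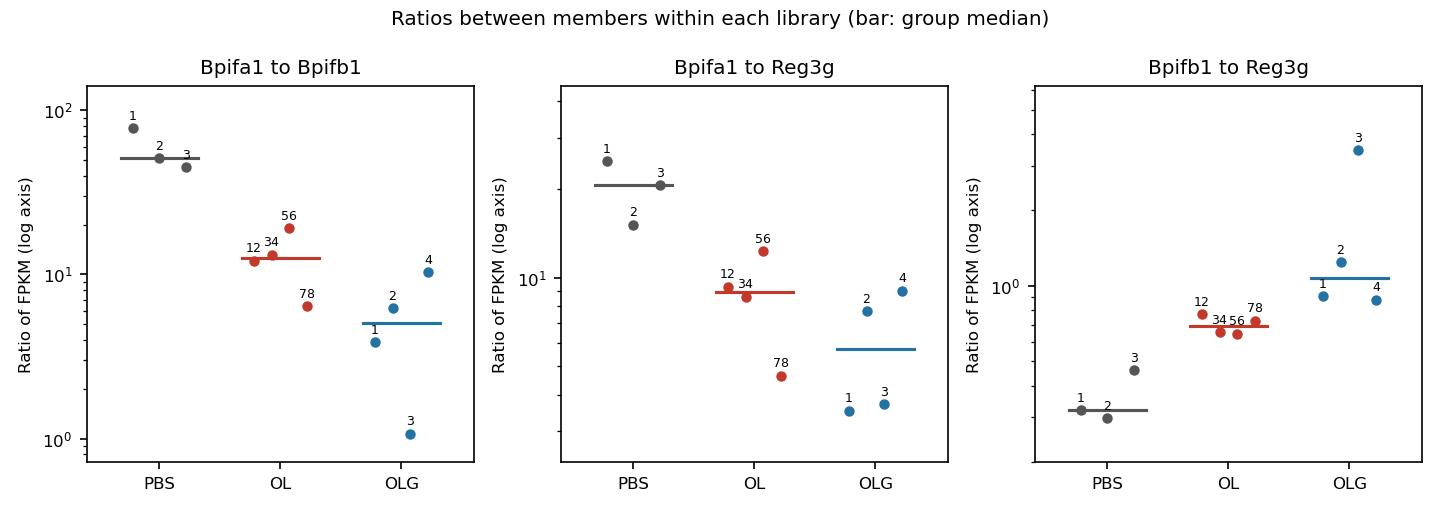
Ratios of FPKM between Bpifa1, Bpifb1 and Reg3g in each library on log axes, with points numbered by library and bars at the group medians. The Bpifa1 to Bpifb1 ratio is 44.9 to 78.1 in PBS and 1.07 to 19.1 in OL and OLG together, and the Bpifb1 to Reg3g ratio separates the 3 groups.

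Across the 11 libraries, which share the differences in depth and makeup described above, the genes most like each member by Pearson's r of log2(FPKM + 1) were read out. For Bpifa1 they were Cyp4a12b (r = 0.984), the basal keratins Krt15 (r = 0.966) and Krt5 (r = 0.954), S100b (r = 0.955) and Orm1 (r = 0.952). For Bpifb1 they were Gm281 (r = 0.993), Efhb (r = 0.992), Prom1 (r = 0.991), Gm12695 (r = 0.988) and Pigr (r = 0.988). Pigr had Prom1 (r = 0.991), Bpifb1, Gsto1 (r = 0.985), Iqgap2 (r = 0.985) and Gm12695 (r = 0.980) as its nearest. Reg3g had Oit1 (r = 0.992), the goblet cell disulphide isomerase gene Agr2 (r = 0.983), the lactoferrin gene Ltf (r = 0.981), Scgb3a1 (r = 0.979) and Calml3 (r = 0.974). Scgb3a1 shared Oit1 (r = 0.985), Agr2 (r = 0.984) and Ltf (r = 0.982) with it, beside Prkaa2 (r = 0.988) and Efhb (r = 0.983). The nearest of Scgb3a2 were Steap1 (r = 0.985), Capsl (r = 0.984), Mlf1 (r = 0.982), Ccdc181 (r = 0.979) and Iqcg (r = 0.977). Scgb1a1 had no close match, with Cebpd (r = 0.867) first, then Ngp (r = 0.866), Cdkn1a (r = 0.854), Creld2 (r = 0.843) and Stkld1 (r = 0.842). Scgb1c1, at its low level, was nearest to Scly (r = 0.970), Slc15a3 (r = 0.968), Supt4a (r = 0.966), Bmf (r = 0.960) and Dhrs3 (r = 0.947).

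Of the family relatives, few were measured. Of 25 listed secretoglobin, BPI fold and Reg genes in the table besides the members, 13 were at 0 in all libraries, Bpifa2, Reg3a and Reg3b among them, and 3 entered the fit. Lbp, which encodes the LPS-binding protein, measured 13.8, 29.5 and 15.4 FPKM in PBS, 25.7, 38.0, 27.6 and 36.5 in OL, and 26.8, 33.1, 16.7 and 61.6 in OLG, and did not pass in OL against PBS (log2 change 0.74, SE 0.37, adjusted p = 0.132). As in 6 of the 8 members, OLG 4 was the highest and OLG 3 the lowest OLG library. Pltp, which encodes the phospholipid transfer protein, fell in OL against PBS by 0.57 on the log2 scale (SE 0.15, adjusted p = 0.0135), a call that the GC correction ended (-0.24, adjusted p = 0.233). Bpifb5, at 1.26 to 3.88 FPKM, passed in no comparison without that correction and in OL against PBS with it (0.71, adjusted p = 0.0235).

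The wider set of club cell genes went both ways. Of 30 club cell genes, 9 rose and 6 fell in OL against PBS, with a median log2 change of 0.28, and 5 rose and none fell in OLG against OL, with a median of 0.07. Over all genes, 15.9% rose and 22.1% fell in OL against PBS, and 6.90% rose and 1.81% fell in OLG against OL. No list was tested against these shares. Retnla, a resistin-like gene induced by IL-4 and IL-13, measured 36.7, 51.0 and 74.8 FPKM in PBS and 3651, 3449.8, 2093 and 4764 in OL, and rose by a log2 of 5.98 (SE 0.42, adjusted p = 0.000192). Cyp2f2, a monooxygenase typical of club cells, measured 814, 1009.8 and 960.0 FPKM in PBS and 617, 896, 842 and 761 in OL (log2 change -0.26, SE 0.18, adjusted p = 0.267). Cbr2, a carbonyl reductase of club cells, was higher in OLG than in OL by a log2 of 0.86 (SE 0.19, adjusted p = 0.0261), and the groups did not overlap. Por, the electron donor of the cytochromes P450, and Gstm1, a glutathione transferase, rose in the same comparison by 0.79 (SE 0.15, adjusted p = 0.0204) and 0.54 (SE 0.13, adjusted p = 0.0310).

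Goblet and ciliated cell genes were higher in OL than in PBS, as most members were. Of 15 goblet cell genes, 12 rose and none fell (median 2.63), and of 25 ciliated cell genes, 20 rose and none fell (median 1.16), where 15.9% of all genes rose and 22.1% fell. In OLG against OL none of either list passed (medians -0.01 and 0.05), where 8.71% of all genes did. The trefoil factor gene Tff2 rose in OL against PBS by a log2 of 5.37 (SE 0.92, adjusted p = 0.00393) and the mucin gene Muc5b by 2.63 (SE 0.72, adjusted p = 0.0168). Of 13 basal cell genes, 1 rose and 1 fell, and of 20 alveolar genes, none rose and 10 fell (median -0.76).

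Among 25 regulators of secretory cells, 7 rose and 6 fell in OL against PBS, and 2 rose in OLG against OL, Notch1 (1.07, SE 0.23, adjusted p = 0.0242) and Notch3 (0.70, SE 0.19, adjusted p = 0.0456), receptors that act in the choice between secretory and ciliated fate. Nkx2-1, the lineage factor of lung epithelium, passed in neither. Notch1 and Notch3 had fallen in OL against PBS (log2 changes -1.34 and -1.17, adjusted p = 0.00452 and 0.00413 in limma). In OLG against PBS their log2 changes of -0.27 and -0.47 did not pass. Of 23 cytokine and receptor genes in the fit, 4 rose and 9 fell in OL against PBS. For both lists, the shares over all genes were 15.9% higher and 22.1% lower in OL against PBS. They were 6.90% higher and 1.81% lower in OLG against OL. In OLG against OL, Il17re, a chain of the IL-17C receptor, rose by 0.58 (SE 0.14, adjusted p = 0.0353), Stat6, the transducer of IL-4 and IL-13, rose by 0.46 (SE 0.12, adjusted p = 0.0389), and Ifngr2, a chain of the interferon-γ receptor, fell by 0.41 (SE 0.09, adjusted p = 0.0272).

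Other antimicrobial genes and chemokines were listed for comparison with the members. Of 25 in the fit, 15 rose and 3 fell in OL against PBS (median 1.13), and none rose and 4 fell in OLG against OL (median -0.00). Over all genes, 15.9% rose and 22.1% fell in OL against PBS, and 6.90% rose and 1.81% fell in OLG against OL. The neutrophil attractant Cxcl5 measured 4.24, 3.67 and 0.893 FPKM in PBS, 39.0, 72.6, 54.3 and 73.7 in OL, and 0.428, 1.92, 0.442 and 2.94 in OLG. It rose by a log2 of 4.04 in OL against PBS (SE 0.43, adjusted p = 0.00236) and fell by 4.74 in OLG against OL (SE 0.40, adjusted p = 0.00120), with OL apart from both other groups. Ccl20, the ligand of CCR6, fell in OLG against OL by 2.73 (SE 0.36, adjusted p = 0.00842), and Ccl28, a mucosal chemokine, by 1.13 (SE 0.24, adjusted p = 0.0240). Reg3g, whose OLG values ran from 7.86 to 521 FPKM, overlapped OL where Cxcl5 did not, and this difference between the genes was not tested. Of 13 genes of immunoglobulin transport, 4 rose and 2 fell in OL against PBS. In OLG against OL, Rab11a, a GTPase of recycling endosomes, fell by 0.46 (SE 0.12, adjusted p = 0.0406), while Jchain differed by 0.15 (SE 0.54, adjusted p = 0.876).

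The GC correction bears on the calls of OLG against OL outside the members. With it, Cxcl5 (-4.45, adjusted p = 0.000899) and Ccl20 (-2.38, adjusted p = 0.0232) still passed, while Cbr2, Por, Gstm1, Notch1, Notch3, Il17re, Stat6, Ifngr2, Ccl28 and Rab11a did not. The size held for Ifngr2 (-0.46, adjusted p = 0.0538) and in large part for Notch1 (0.81, adjusted p = 0.0775) and Ccl28 (-0.82, adjusted p = 0.0814), and shrank most for Rab11a (-0.12, adjusted p = 0.649). The remaining 6 had log2 changes from 0.30 for Stat6 to 0.60 for Cbr2. Without the correction, Notch1, Notch3, Gstm1, Il17re and Stat6 were called lower in OL than in PBS. Cxcl5, Ccl20, Ccl28, Ifngr2 and Rab11a were called higher, and Cbr2 and Por were not called. None of these genes passed in OLG against PBS, and the OL libraries enter both other comparisons.

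Lists of other tissues were read for what the pieces held. Over all genes, 15.9% rose and 22.1% fell in OL against PBS, and 1.81% fell in OLG against OL. Of 11 gland genes in the fit, 7 rose and 2 fell in OL against PBS, and 3 fell in OLG against OL. The gland sums, from a list in which Ltf had the highest mean over all libraries, were 439, 739.6, 1699 and 322 FPKM in OL 12, 34, 56 and 78, against 182 to 578 in the PBS and OLG libraries. Lipf, which encodes gastric lipase, measured 60.03, 219, 590.2 and 0.254 FPKM in OL 12, 34, 56 and 78, and Dmbt1, which encodes a mucosal scavenger receptor protein, measured 9.56, 20.5, 36.8 and 2.05. Both were thus highest in the OL libraries with thyroid transcripts, and OL 78 lay within the range of the PBS and OLG libraries. Of 9 thyroid and parathyroid genes, 4 rose in OL against PBS and 1 fell in OLG against OL. Of 9 skeletal muscle genes 1 rose, and of 11 thymus and T cell genes none passed, in OL against PBS. Single libraries stood apart in these lists too. The thymus and T cell genes, of which Lck had the highest mean over all libraries, summed to 129.5 FPKM in OL 12 and to 15.0 to 47.2 in the other libraries. In OL 12 Cd8b1 (21.1 FPKM) was slightly above Lck (20.7 FPKM). The skeletal muscle genes, of which Ckm had the highest mean over all libraries, summed to 172 FPKM in OL 34 and to 8.63 to 92.3 in the others. In OL 34 Acta1 (58.0 FPKM) exceeded Ckm (25.8 FPKM). Of 16 smooth muscle and cartilage genes 2 fell, and of 25 pan-epithelial genes 3 rose and 3 fell, in the same comparison. Of 14 B and plasma cell genes 2 rose and 1 fell, and of 12 neutrophil genes 3 rose and 3 fell. Ltf, which stands in both the gland and the neutrophil list and was near Reg3g and Scgb3a1 in its pattern, measured 21.2, 178 and 2.92 FPKM in PBS, 251, 364, 522 and 222 in OL, and 80.8, 158, 15.1 and 452 in OLG. The part of glands, thyroid, thymus, muscle or leukocytes in the members' values was not tested.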

How the data were processed

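RNA was sequenced from 11 airway samples, of which 3 were PBS, 4 OL and 4 OLG. The authors deposited 1 table of FPKM for 21899 genes. Per the labels' processing notes, reads were handled with cutadapt 1.15, HISAT2 2.0.5 and HTSeq 0.9.1 on mm39. The reference used here is GRCm38 with GENCODE M21, so no gene coordinates are given, and the RefSeq promoter windows are on GRCm38.p6. FPKM times the exon length gave whole fragments, within 0.02 fragments, for about 97.7% of the values above 0 in PBS 1, and the implied depth was 14513136 to 18632382 fragments. Intervals cover the spread between libraries, and counting error is largest for Scgb1c1.

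Genes with a mean of 0.5 FPKM or more were fitted as log2(FPKM + 1) in limma 3.58.1 (R 4.3.3) with a trend, all 11 libraries in 1 model, and p-values were adjusted by Benjamini-Hochberg over 14004 genes with a threshold of 0.05. Adding 1 understates the changes of low genes. Ratios between members were compared by exact two-sided permutation tests in scipy 1.17.1. Tables were handled in pandas 2.3.3 and numpy 2.4.6 under Python 3.11.15, and plots were drawn in matplotlib 3.10.9. The fit was tested on simulated data, but no outcome of that test is given here and no result rests on it.

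The members and gene lists were chosen with earlier results of these data known. Named were the members, their relatives, in each other list up to 3 genes with the smallest p in OLG against OL and up to 3 with the highest mean, and the 5 genes most like each member. The alternatives were a change of the pseudocount to 0.1, of the required mean to 1 FPKM or to none, rescaling to the same median, voom on the recovered fragments with TMM factors, which changes the input, the scaling and the variance model together and tested 13991 genes, array weights, only the 2 groups compared, a GC correction by a spline with 5 degrees of freedom, each library left out, and OL 34 and OL 56 left out together. Values relative to the pan-epithelial list, and PBS 1 to 3 with OLG 1 to 3 with no block, were alternatives chosen after seeing the data.

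PBS and OLG share replicate numbers 1 to 3. Deviations of same-numbered libraries from their group means correlated across genes with r = 0.367, 0.427 and 0.428, so the replicate block was fitted. The labels do not say what the numbers mark, and PBS 1 correlated more with OLG 3 (r = 0.457) and PBS 2 with OLG 4 (r = 0.637).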

Additional observations from a re-analysis of the deposited data

How the results depend on the processing

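The calls among the members rest on few libraries. Of 136 combinations of member and alternative in OL against PBS, 109 stayed on the same side of the threshold, 25 lost a call, 2 gained one and 0 changed sign. In OLG against OL, 135 of 144 stayed, 1 gained a call and 8 changed sign, and in OLG against PBS, 137 of 152 stayed, 10 gained a call and 5 changed sign. The causes of these changes were not tested.

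Of all genes, 5327 were called in OL against PBS, against 2904 with the GC correction, 1918 relative to the pan-epithelial list, 131 without OL 34 and OL 56, and 3064 (without PBS 3) to 6440.0 (without PBS 2) with 1 library left out. In OLG against OL, 1220.0 were called, against 698 rescaled to the same median, 811 by voom on recovered fragments with TMM factors, 5214 with array weights, 3525 with only the 2 groups, 56 with the GC correction, 21 relative to the pan-epithelial list, 1 without OL 34 and OL 56, and 24 (without OLG 1) to 1052 (without OLG 4) with 1 library left out. In OLG against PBS, 403 were called, against 208 with no filter on low values, 2557 with array weights, 39 with only the 2 groups, 56 without OL 34 and OL 56, 202 relative to the pan-epithelial list, and 29 (without PBS 1) to 1597 (without PBS 2) with 1 library left out. Array weights moved the split from 288 higher and 115 lower to 1379 and 1178. The same weights split OLG against OL into 3232 higher and 1982 lower, only the 2 groups into 2119 and 1406, and the GC correction into 34 and 22.

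With the replicate block on PBS 1 to 3 and OLG 1 to 3, 62 genes were called, against 14 in the same libraries with no block, and no member was (Bpifb1 3.23, adjusted p = 0.0505 in limma). Bpifa1 in OLG against PBS turned from 0.46 to -0.60 in both of these fits and to -0.13 with array weights, and ran from -1.12 to 2.06 with 1 library left out. Scgb1a1 in OLG against OL turned from 0.02 to -0.028 rescaled to the same median, -0.050 by voom, -0.050 with array weights, -0.039 with the GC correction and -0.14 relative to the pan-epithelial list, and ran from -0.11 to 0.095 with 1 library left out. Pigr in OLG against OL ran from -0.86 (without OLG 4) to 0.033 (without OLG 3).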
